A study of Mus musculus with 24 samples.

Results

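The data are gene counts from subcutaneous prostate tumors of mice that had received a plasmid for interleukin-27 (IL-27) or a control plasmid. All 4 libraries of this experiment were chosen by their labels, 2 labelled IL-27 vector and 2 labelled empty vector, out of 24 libraries in the series. The other libraries came from tumors grown in the tibia. The series asked how IL-27 gene delivery, alone or joined with the kinase inhibitor cabozantinib, changed prostate tumors, and this experiment addressed IL-27 alone. The tumors grew from TC2Ras, a line derived from the mouse prostate adenocarcinoma line TRAMP-C2 that carries activated H-Ras, injected at 300000 cells into each flank of wild-type male C57BL/6 mice 8 to 10 weeks old. All 4 tumors share this line, this host and this site. The IL-27 tumors came from mice given pTSTA-IL27pepL, which expresses IL-27 with a targeting peptide, and the control tumors from mice given pTSTA-ctrl. Both plasmids went into muscle with sonoporation, so that the muscle and not the tumor received the gene, and the tumors were taken 1 week after the cells were implanted. The labels do not say whether the 2 libraries of a group are from separate mice, so a p-value measures only the spread between these libraries. Below, values of 1 gene run from IL-27 replicates 1 and 2 to control replicates 1 and 2.

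IL-27 is a cytokine of the IL-12 family made of the subunits p28, from Il27, and EBI3. Its receptor pairs IL27RA with gp130, from Il6st, and signals through Janus kinases and STAT proteins. In T and NK cells it is known to induce interferon-type programs and the IL-12 receptor chain IL12RB2, and in other settings inhibitory receptors and IL-10.

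Sequencing depth was alike, at 69240429 to 83782258 counts on genes, but the libraries of the 2 groups differed in the composition of the RNA they held. Both IL-27 libraries were shifted towards transcripts of low GC content. The balance of low against high GC genes, the difference of their median log2 deviations from the tibial libraries, was 3.17 and 2.98 in the IL-27 libraries, -0.21 and 0.54 in the control libraries, and between -0.91 and 0.06 in the tibial libraries. The mean GC content weighted by counts was 45.2% and 45.3% in the IL-27 libraries and 49.0% and 48.2% in the controls. Mitochondrial transcripts took 8.52% and 8.45% of the counts of the IL-27 libraries against 5.96% and 4.46%, and cytosolic ribosomal protein genes took 1.97% and 2.34% against 6.98% and 3.63%. These properties separate the groups completely, so that an effect of the plasmid and an effect of RNA quality or library preparation cannot be told apart. Each result is therefore given as counted and again after the dependence of every library on GC content and transcript length was taken out, which is called the removal of the trend.

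**Figure D1:**
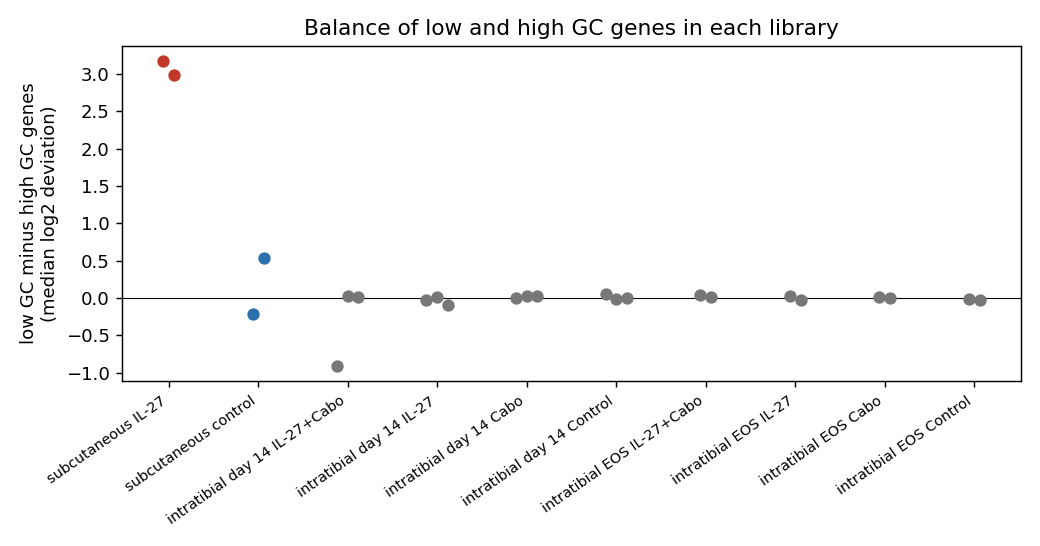
Each point is 1 of the 24 libraries, placed by group on the horizontal axis, and the vertical axis gives the median log2 deviation of low GC genes minus that of high GC genes. The 2 subcutaneous IL-27 libraries, at 3.17 and 2.98, lie above the other 22.

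Among 19360 genes that passed the filter on low counts, 682 (3.52%) were called higher and 3198 (16.5%) lower in the IL-27 tumors, at a Benjamini-Hochberg adjusted p under 0.05. The change followed GC content. Genes were split into 4 classes of about equal size. In the class with the lowest GC content, 17.1% to 44.5%, the median log2 fold change was 0.85, and 390 genes were higher and 17 lower. In the class with the highest, 53.9% to 78.3%, it was -2.05, and 41 genes were higher and 2444 lower. With the trend removed, 534 genes (2.76%) were called higher and 1058 (5.46%) lower, and the medians of the 4 classes lay between -0.16 and 0.06. Of the calls as counted, 218 higher and 972 lower were made again, and 15 genes were called in opposite directions by the 2 fits. DESeq2, another count model, called 2054 genes higher and 3866 lower.

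**Figure D2:**
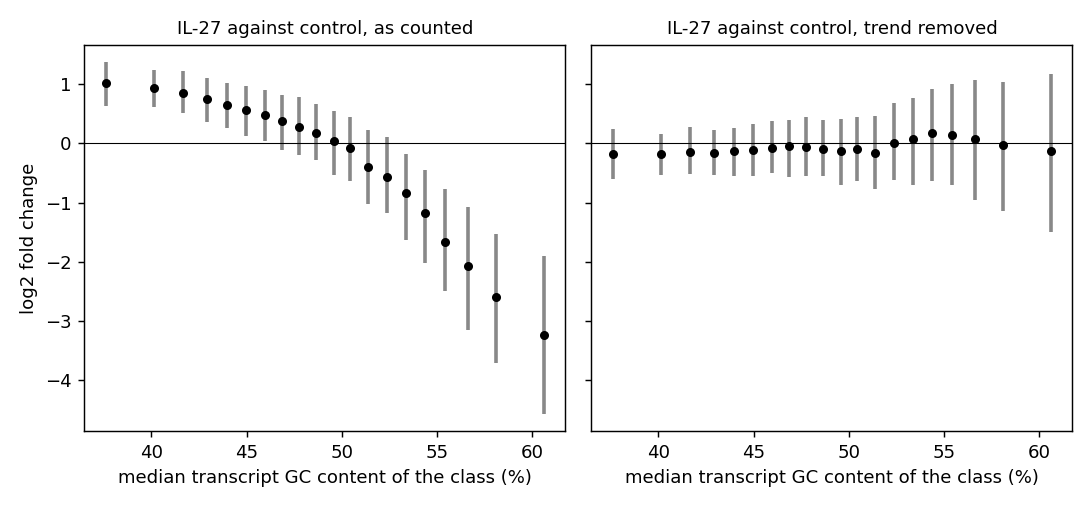
Genes are grouped into 20 classes by the GC content of their transcripts, in percent on the horizontal axis, and the vertical axis gives the log2 fold change of IL-27 against control, with points at the class median and lines over its middle 50%. As counted the medians fall from low to high GC content, and with the trend removed they lie near 0.

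Single libraries decided many calls. Without control replicate 1, 104 genes were higher and 1989 lower, and without control replicate 2, 1807 were higher and 3393 lower. Leaving out IL-27 replicate 1 gave 885 and 2479, and leaving out IL-27 replicate 2 gave 364 and 2478. Across the fit as counted, the fit with the trend removed and the 4 fits without 1 library each, 68 genes were called higher in all 6 (0.351% of those tested) and 744 lower in all 6 (3.84%). Calls that held in all 6 fits are named as such below. Where the groups are said not to overlap, this describes the values and adds no further support to a call. With 2 libraries against 2, uncalled genes such as Stat3 and Cxcl10 did not overlap either. The share of such genes over all tested genes is not given here. The counts of a list are to be read against the shares of all tested genes, 3.52% higher and 16.5% lower as counted and 2.76% and 5.46% with the trend removed.

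**Figure D3:**
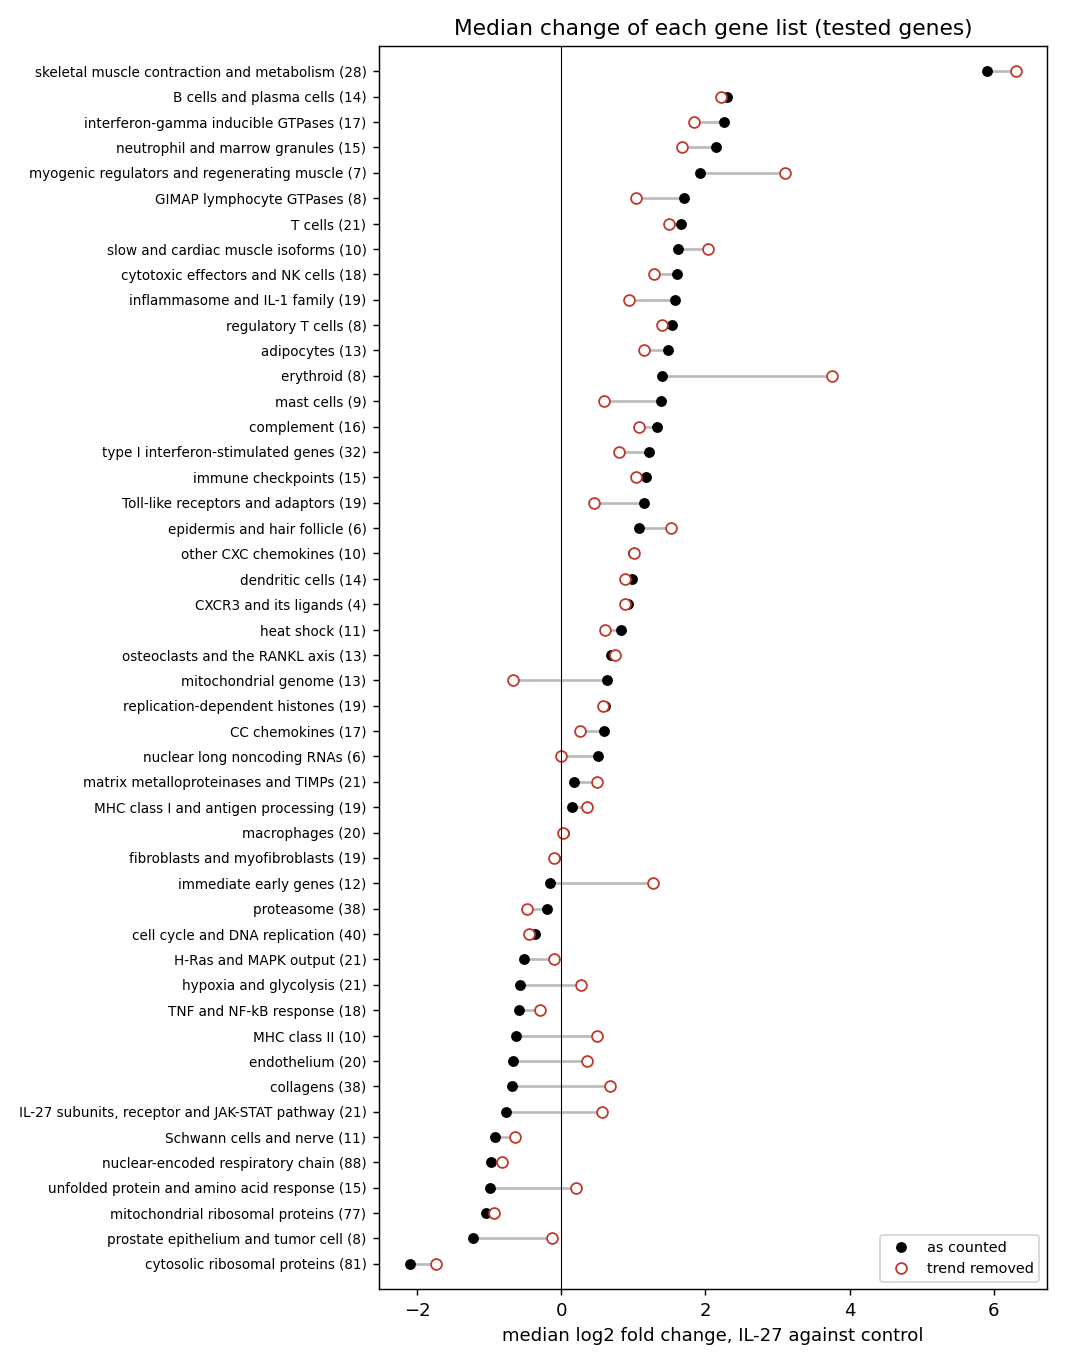
Each row is a gene list with its number of tested genes, and the horizontal axis gives the median log2 fold change of IL-27 against control, filled as counted and open with the trend removed. Skeletal muscle genes lie farthest to the right at 5.91 and 6.31 and cytosolic ribosomal protein genes farthest to the left at -2.10 and -1.74, and several lists change sign.

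The receptor chain Il12rb2 was the clearest change among the genes of the IL-27 pathway. It had 143 and 138 counts in the IL-27 tumors and none in either control, which puts it at least 45.7-fold higher, or at least 36.3-fold with the trend removed, taking 3 counts per library as the limit of detection (adjusted p = 0.00385 and 0.0114). The groups did not overlap, and the call held in all 6 fits. Il12rb2 encodes the signaling chain of the IL-12 receptor, lies on the minus strand of chromosome 6 at 67291318 to 67376188 (GRCm38) and overlaps Serbp1 on the other strand. Transcripts of the Il27 subunit were near absent from all 4 tumors. Il27 had 5 and 0 counts in the IL-27 tumors and 10 and 3 in the controls, and Il12a, which encodes a subunit of IL-12, had 5 and 6 against 3 and 0, too few for a test. Ebi3 had 0.165 and 0.526 CPM against 2.21 and 1.48, log2 fold change -2.41 and adjusted p = 0.0767, and 0.03 with the trend removed.

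Receptor and kinase genes upstream of the STAT proteins showed smaller differences. The IL-27 receptor gene Il27ra had 2.18 and 2.45 CPM against 5.64 and 3.93 (adjusted p = 0.176), and its log2 fold change went from -1.05 to 0.78 with the trend removed. Il6st, which encodes the shared chain gp130, had 214 and 272 CPM against 83.7 and 180.2 (adjusted p = 0.197). The kinase genes Jak1 and Jak2 had log2 fold changes of 0.93 and 1.23 (adjusted p = 0.112 and 0.0591). Tyk2, the kinase of several cytokine receptors, fell as counted from 45.4 and 39.5 CPM in the controls to 6.97 and 10.2 (adjusted p = 0.0066), but its log2 fold change was -0.05 with the trend removed. CPM, the counts scaled to a fixed effective library size, are comparable between libraries for 1 gene and not between genes.

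Stat5b, a transducer of several cytokine receptors, fell in both fits, from -1.94 as counted (adjusted p = 0.00934) to -1.26 with the trend removed (adjusted p = 0.0417). Stat5a fell as counted (-1.45, adjusted p = 0.0377) and turned to 1.08 with the trend removed (adjusted p = 0.11). Stat3 had 65.1 and 74.9 CPM against 109 and 131 (adjusted p = 0.127) and Stat4, the transducer of IL-12 signals, had 11.9 and 19.8 CPM against 1.32 and 5.93 (adjusted p = 0.0845). Stat5a and Stat3 overlap on opposite strands, and whether the counting used strand is not stated. Among the feedback inhibitors, Socs3 fell as counted (-1.94, adjusted p = 0.0195) and turned to 0.79, Socs2 rose as counted (1.78, adjusted p = 0.0222) with 1.12 after removal (adjusted p = 0.147), and Socs1 had 0.0633 and 0.282 CPM against 3.57 and 0.653 (adjusted p = 0.0655). Il12b, the p40 subunit of IL-12 and IL-23, rose from 0.151 and 0.694 CPM to 3.97 and 3.72 (adjusted p = 0.0351, and 0.0747 with the trend removed). The partner chain Il12rb1, the factors Stat2 and Stat6 and the regulators Cish, Pias1 and Ptpn6 were not called in either fit, with log2 fold changes of -0.64, 0.35, -0.85, -1.35, 0.63 and -0.77 as counted and 1.88, 0.75, 0.23, -0.53, -0.35 and 0.74 with the trend removed. Over the 21 tested genes of the pathway 3 rose and 4 fell as counted, with a median log2 fold change of -0.77 against 0.04 over all genes. After removal 1 rose and 1 fell, and the median was 0.57 against -0.09. The shares that fell were 19.05% and 4.76%, against 16.5% and 5.46% of all tested genes. Stat5a, Socs3, Socs2 and Il12b lost their calls without control replicate 1 (adjusted p 0.0773 to 0.0996). Socs2 lost its call without control replicate 2 (adjusted p = 0.0651). Stat5b, Socs3 and Stat5a lost their calls without IL-27 replicate 1 (adjusted p 0.0594 to 0.124). Stat5b, Socs3, Stat5a and Socs2 lost their calls without IL-27 replicate 2 (adjusted p 0.0538 to 0.225).

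Interferon-stimulated genes were more often higher than lower. Of 32 tested genes induced by type I interferon, 12 rose and 4 fell as counted, and 4 rose and 1 fell with the trend removed, with medians of 1.22 and 0.80. The shares that rose were 37.5% and 12.5%, against 3.52% and 2.76% of all tested genes, and those that fell 12.5% and 3.12%, against 16.5% and 5.46%. Mx1, which encodes an antiviral dynamin-like GTPase, rose from 4.88 and 5.66 CPM to 29.3 and 41.8, a log2 fold change of 2.76 ± 0.39 (SE, adjusted p = 0.00394), with 2.35 after removal (adjusted p = 0.011). Both IL-27 tumors lay above both controls, and the call held in all 6 fits. Ifit3 had 51.4 and 102 CPM against 19.1 and 18.2 and rose in both fits (adjusted p = 0.0149 and 0.0339). Rsad2, which encodes viperin, had 34.5 and 53.4 CPM against 5.77 and 12.7 and Oas2, a sensor of double-stranded RNA, had 23.7 and 60.4 CPM against 3.62 and 10.7, and both rose in both fits (adjusted p with the trend removed = 0.0479 and 0.0459). Ifit3, Rsad2 and Oas2 lost their calls without control replicate 1 (adjusted p 0.0784 to 0.166). Ifit3 lost its call without control replicate 2 (adjusted p = 0.0624). Ifit3 and Oas2 lost their calls without IL-27 replicate 2 (adjusted p 0.0767 to 0.119).

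The members that fell were Isg20, an exonuclease, Ifi35, Oasl1 and Isg15, a ubiquitin-like modifier. Ifi35 fell from 29 and 16.7 CPM to 2.7 and 3.06 (adjusted p = 0.00496), also with the trend removed (-1.66, adjusted p = 0.0343), in all 6 fits. Isg20 had 1.08 and 1.82 CPM against 27.9 and 13.5 (adjusted p = 0.00447), Oasl1 had 1.61 and 2.94 CPM against 11.2 and 9.03 (adjusted p = 0.0255) and Isg15 had 1.28 and 1.98 CPM against 6.36 and 5.05 (adjusted p = 0.0497), and with the trend removed their adjusted p were 0.101, 0.881 and 0.263. Oasl1 and Isg15 lost their calls without control replicate 1 (adjusted p 0.119 to 0.167). Isg15 lost its call without control replicate 2 (adjusted p = 0.0673). Oasl1 and Isg15 lost their calls without IL-27 replicate 1 (adjusted p 0.0981 to 0.184). Isg15 lost its call without IL-27 replicate 2 (adjusted p = 0.0559).

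The GTPases induced by interferon-gamma act against intracellular pathogens. All 17 tested had a positive log2 fold change in both fits, with medians of 2.25 and 1.84. As counted 12 were called higher and with the trend removed 6, and none was called lower. The shares that rose were 70.6% and 35.3%, against 3.52% and 2.76% of all tested genes. The list's median GC content was 43.6%, within the class of lowest GC content. That class had a median log2 fold change of 0.85 as counted and -0.16 with the trend removed. Tgtp2, a T cell-specific GTPase, rose from 4.77 and 7.5 CPM to 35.6 and 80.8, a log2 fold change of 3.25 ± 0.52 (adjusted p = 0.00599) and of 2.40 with the trend removed (adjusted p = 0.0202). Its near-identical neighbor Tgtp1 had 19.2 and 42.3 CPM against 3.56 and 4.29 (adjusted p = 0.00724), and reads of the pair could have been split between them. Gbp6, a guanylate-binding protein gene that overlaps another annotated gene, had 26.1 and 55.4 CPM against 3.4 and 5.63 (adjusted p = 0.00668). Irgm2, an immunity-related GTPase gene that overlaps Igtp on the same strand, had 43.7 and 93 CPM against 10.9 and 16.5 (adjusted p = 0.015). Iigp1 had 70.9 and 216 CPM against 5.73 and 17.8 and Ifi47 had 31.4 and 80.3 CPM against 9.17 and 10.8, and both rose in both fits (adjusted p with the trend removed = 0.0427 and 0.0431). In each of these 6 genes both IL-27 tumors lay above both controls, and IL-27 replicate 2 was the higher of the pair. No call of this list held in all 6 fits. Tgtp2, Tgtp1, Gbp6, Irgm2, Iigp1 and Ifi47 lost their calls without control replicate 1 (adjusted p 0.0666 to 0.124). Ifi47 lost its call without control replicate 2 (adjusted p = 0.0641). Irgm2 and Ifi47 lost their calls without IL-27 replicate 2 (adjusted p 0.0683 to 0.0693).

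The promoters of the genes that rose in both fits show which of them carry the letters that interferon-activated factors are known to bind, and 5 of them are printed here. The windows are from RefSeq (GRCm38.p6), 250 bases before to 50 after the start of transcription. The interferon-stimulated response element was searched as GAAANNGAAA and the gamma-activated site as TTCNNNGAA, on both strands. Matches are in capitals, and an N stands for any base. The windows are Il12rb2 at chr6:67376139-67376438 on the minus strand, Tgtp2 at chr11:49064163-49064462 on the minus strand, Irgm2 at chr11:58214727-58215026 on the plus strand, Ifit3 at chr19:34583279-34583578 on the plus strand and Rsad2 at chr12:26456403-26456702 on the minus strand.
Il12rb2: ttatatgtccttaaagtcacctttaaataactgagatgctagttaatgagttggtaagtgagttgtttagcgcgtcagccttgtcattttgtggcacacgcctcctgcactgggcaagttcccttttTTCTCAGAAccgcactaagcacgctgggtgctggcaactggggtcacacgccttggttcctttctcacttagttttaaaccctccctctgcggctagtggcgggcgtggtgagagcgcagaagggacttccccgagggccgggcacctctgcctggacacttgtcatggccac
Tgtp2: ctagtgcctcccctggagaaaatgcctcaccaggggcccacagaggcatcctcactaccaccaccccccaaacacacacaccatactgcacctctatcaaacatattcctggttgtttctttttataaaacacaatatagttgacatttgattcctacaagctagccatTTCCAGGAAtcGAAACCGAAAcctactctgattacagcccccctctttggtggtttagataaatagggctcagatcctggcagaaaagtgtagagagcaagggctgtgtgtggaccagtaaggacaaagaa
Irgm2: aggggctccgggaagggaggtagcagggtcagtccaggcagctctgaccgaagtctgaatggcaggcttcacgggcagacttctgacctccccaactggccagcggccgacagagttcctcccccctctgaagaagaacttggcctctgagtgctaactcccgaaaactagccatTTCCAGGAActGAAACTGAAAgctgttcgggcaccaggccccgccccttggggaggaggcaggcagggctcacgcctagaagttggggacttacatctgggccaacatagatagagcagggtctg
Ifit3: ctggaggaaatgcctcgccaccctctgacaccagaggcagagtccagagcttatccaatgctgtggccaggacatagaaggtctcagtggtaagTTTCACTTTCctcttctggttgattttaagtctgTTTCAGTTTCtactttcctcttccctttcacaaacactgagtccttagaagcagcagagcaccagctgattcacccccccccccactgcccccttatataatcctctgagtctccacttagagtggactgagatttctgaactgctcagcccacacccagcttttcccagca
Rsad2: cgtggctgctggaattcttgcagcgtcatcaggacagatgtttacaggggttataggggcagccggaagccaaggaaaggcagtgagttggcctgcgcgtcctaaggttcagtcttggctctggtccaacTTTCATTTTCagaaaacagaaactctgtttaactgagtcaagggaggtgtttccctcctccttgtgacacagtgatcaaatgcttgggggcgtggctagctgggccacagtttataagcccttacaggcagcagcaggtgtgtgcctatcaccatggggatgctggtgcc
In Tgtp2 and in Irgm2 a gamma-activated site stands 2 bases before a response element, and the site has the same letters in both genes. Il12rb2 held a gamma-activated site alone upstream of the start, Ifit3 held 2 response elements and Rsad2 held 1. The windows of Cxcl9 and Ifi47 held no match. A response element was found in 9 of the 10 interferon-gamma GTPase genes with a promoter entry (90%), in 12 of 23 type I interferon-stimulated genes (52.2%), in 19 of 154 genes called higher in both fits (12.3%), in 32 of 730 called lower in both fits (4.38%) and in 3.99% of 27025 genes with an entry. For the gamma-activated site the shares were 60%, 26.1%, 13%, 8.08% and 9.55% in the same order. A match describes the letters and not a bound site.

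Among the ligands of CXCR3, the receptor that draws activated T and NK cells, Cxcl9 rose and the others did not pass the test. Cxcl9 had 40.7 and 68.8 CPM against 6.11 and 10.6, a log2 fold change of 2.72 ± 0.46 as counted (adjusted p = 0.0072) and of 1.86 with the trend removed (adjusted p = 0.0249), and the groups did not overlap. Cxcl10 had 8.91 and 5.89 CPM against 12.4 and 14.4, lower in both IL-27 tumors but not called (adjusted p = 0.186). Cxcl11 had 0.443 and 1.09 CPM against 0.0878 and 0 (adjusted p = 0.106) and the receptor gene Cxcr3 had 0.671 and 0.846 CPM against 1.98 and 1.96 (adjusted p = 0.145). The monocyte chemoattractant Ccl8 rose in both fits, with 66.7 and 295 CPM against 8.44 and 14.3 (adjusted p = 0.011 and 0.023). Ccl5 and the lymphoid chemokine Ccl21a fell as counted and not after removal (adjusted p = 0.162 and 0.0986), and no other of the 17 tested CC chemokines was called. The neutrophil attractant Cxcl5 rose in both fits, from 0.527 and 0.979 CPM to 27.8 and 5.36 (adjusted p = 0.0134 and 0.0434), Cxcl2 rose as counted (adjusted p = 0.0372), and the platelet factor gene Pf4 fell in both fits, with 5.47 and 8.05 CPM against 43.9 and 27.2 (adjusted p = 0.00948 and 0.0131). Cxcl9, Ccl8, Ccl5, Ccl21a, Cxcl5, Cxcl2 and Pf4 lost their calls without control replicate 1 (adjusted p 0.053 to 0.163). Ccl8, Ccl21a, Cxcl5 and Cxcl2 lost their calls without control replicate 2 (adjusted p 0.0545 to 0.137). Ccl5 lost its call without IL-27 replicate 1 (adjusted p = 0.0547). Ccl5 and Cxcl2 lost their calls without IL-27 replicate 2 (adjusted p 0.0559 to 0.237).

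Of 19 tested genes of MHC class I and peptide processing, 2 rose and 4 fell as counted, and 3 rose and 1 fell with the trend removed, with medians of 0.15 and 0.36. The shares that fell, 21.1% and 5.26%, lay near those of all tested genes, 16.5% and 5.46%. Psmb10, a subunit of the immunoproteasome, fell from 31 and 22.4 CPM to 0.76 and 1.22 (adjusted p = 0.00162, and 0.0114 with the trend removed) in all 6 fits. The peptide transporter gene Tap2, the chaperone gene Tapbp and the class Ib gene H2-T23 fell as counted (-2.43, -1.47 and -1.76, adjusted p = 0.0108, 0.0311 and 0.0388), and none of the 3 was called after removal, where Tapbp had 0.84. The class Ib gene H2-Q6 rose in both fits, with 22 and 50.7 CPM against 7.5 and 10.4 (adjusted p = 0.0298 and 0.0106), and the trimming peptidase gene Erap1 rose as counted (adjusted p = 0.0471). With the trend removed H2-K1 and H2-Q4 rose as well (2.18 and 2.38, adjusted p = 0.0333 and 0.0347), and H2-K1 turned from 0.92 to -0.02 as counted without IL-27 replicate 2. Class I genes share long stretches of sequence, and their reads could have been split between copies. Tapbp, H2-T23, H2-Q6 and Erap1 lost their calls without control replicate 1 (adjusted p 0.0832 to 0.185). H2-Q6 lost its call without control replicate 2 (adjusted p = 0.0726). Tapbp, H2-T23 and Erap1 lost their calls without IL-27 replicate 1 (adjusted p 0.138 to 0.239). Tapbp, H2-Q6 and Erap1 lost their calls without IL-27 replicate 2 (adjusted p 0.116 to 0.188).

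For MHC class II, which presents antigen to helper T cells, the fits gave different pictures. As counted, H2-Aa rose (139 and 183 CPM against 65.6 and 61.3, adjusted p = 0.0292) and the peptide exchange genes H2-DMa and H2-DMb1 fell (adjusted p = 0.0109 and 0.0239), with a median of -0.63 over 10 genes. After removal, H2-Ab1, the master regulator Ciita and the invariant chain Cd74 were called higher (1.77, 2.60 and 1.28, adjusted p = 0.0226, 0.0228 and 0.0369), none was called lower, and the median was 0.49. H2-Ab1 and Cd74 had -0.64 and -0.90 as counted, so that their direction depends on the removal. H2-Aa, H2-DMa and H2-DMb1 lost their calls without control replicate 1 (adjusted p 0.0724 to 0.109). H2-Aa lost its call without control replicate 2 (adjusted p = 0.0515). H2-Aa and H2-DMb1 lost their calls without IL-27 replicate 1 (adjusted p 0.0877 to 0.0968). H2-Aa lost its call without IL-27 replicate 2 (adjusted p = 0.273).

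Of 21 tested T cell genes, 7 rose and 1 fell as counted, and 4 rose and none fell with the trend removed, with medians of 1.67 and 1.50. Cd8a, the coreceptor of cytotoxic T cells, had 6.03 and 2.21 CPM against 0.151 and 0.299, a log2 fold change of 4.19 ± 0.79 (adjusted p = 0.0113) and of 3.82 with the trend removed (adjusted p = 0.0276). Icos, an inducible costimulator, had 7.61 and 4.59 CPM against 0.539 and 0.735 (adjusted p = 0.00858 and 0.0375), and the adhesion gene Cd2 had 5.94 and 6.44 CPM against 1.73 and 0.911 (adjusted p = 0.0302 and 0.032). Cd3g, Cd28 and Il7r rose as counted (2.53, 2.69 and 2.53) and were not called after removal (adjusted p = 0.2, 0.0755 and 0.0694). Zap70, the kinase of the T cell receptor, went the other way, with 0 counts in both IL-27 tumors and 108 and 57 in the controls, at least 27.9-fold lower as counted (adjusted p = 0.00935) and at least 3.74-fold with the trend removed (adjusted p = 0.0516). In bulk tissue more T cells and more of a transcript per T cell cannot be told apart, here and for every other cell type. Cd8a, Icos, Cd2, Cd3g, Cd28, Il7r and Zap70 lost their calls without control replicate 1 (adjusted p 0.0511 to 0.114). Cd2 lost its call without control replicate 2 (adjusted p = 0.0731).

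Of 18 tested genes of cytotoxic effectors and NK cells, 5 rose and 1 fell as counted and 1 rose with the trend removed, with medians of 1.61 and 1.29. Gzma, a granzyme of NK and cytotoxic T cells, rose in both fits, with 5.78 and 21.2 CPM against 0.765 and 1.22 (adjusted p = 0.0132 and 0.0362). The activating receptor Klrk1 had 20.03 and 24.7 CPM against 4.52 and 5.99, the lectin receptor Klrc1 had 4.19 and 7.85 CPM against 0.853 and 0.857, Klrd1 had 9.96 and 13.3 CPM against 3.2 and 4.57 and the cytokine gene Ifng had 0.671 and 1.71 CPM against 0 and 0.0544, and these 4 rose as counted (adjusted p = 0.0113, 0.0144, 0.0473 and 0.0379). The pore-forming gene Prf1 fell, with 1.8 and 1.82 CPM against 8.88 and 8 (adjusted p = 0.0156, and 0.127 with the trend removed). Gzma and Prf1, both parts of the cytotoxic granule, thus differed in opposite directions as counted. Gzma, Klrk1, Klrc1, Klrd1, Ifng and Prf1 lost their calls without control replicate 1 (adjusted p 0.0569 to 0.156). Gzma, Klrc1 and Klrd1 lost their calls without control replicate 2 (adjusted p 0.0558 to 0.059). Klrd1 lost its call without IL-27 replicate 1 (adjusted p = 0.0628). Klrd1 and Ifng lost their calls without IL-27 replicate 2 (adjusted p 0.156 to 0.192).

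The inhibitory receptor genes Ctla4 and Btla rose in both fits. Ctla4, which competes with CD28 for its ligands, had 8.92 and 6.58 CPM against 0.288 and 0.721, a log2 fold change of 3.94 ± 0.65 (adjusted p = 0.00679) and of 3.04 with the trend removed (adjusted p = 0.0226), and Btla, another inhibitory receptor of lymphocytes, had 8.65 and 8.46 CPM against 0.339 and 1.08 (adjusted p = 0.0113 and 0.0314). Both calls held in all 6 fits, and both IL-27 tumors lay above both controls. Cd274, which encodes PD-L1, had 24.7 and 57.4 CPM against 7.51 and 10.2 and the CD28 ligand Cd80 had 16.3 and 23.6 CPM against 5.39 and 4.56, and both rose as counted (adjusted p = 0.0215 and 0.0155) but not with the trend removed (adjusted p = 0.0731 and 0.171). Of the 15 checkpoint genes tested 5 rose and none fell as counted, and Ctla4, Btla and Icos rose with the trend removed, with medians of 1.17 and 1.04. Of 8 genes of regulatory T cells, Ctla4 and the IL-2 receptor chain Il2ra rose and the TGF-beta docking protein Lrrc32 fell as counted (1.93 and -2.12, adjusted p = 0.0335 and 0.0148). With the trend removed the lineage factor Foxp3 rose beside Ctla4 (2.74, adjusted p = 0.0472), with 1.99 and 2.68 CPM against 0.727 and 1.39, and Lrrc32 had 0.50. Cd274, Cd80, Il2ra and Lrrc32 lost their calls without control replicate 1 (adjusted p 0.0643 to 0.142). Cd274 lost its call without control replicate 2 (adjusted p = 0.0627). Lrrc32 lost its call without IL-27 replicate 1 (adjusted p = 0.0822). Cd274, Cd80 and Il2ra lost their calls without IL-27 replicate 2 (adjusted p 0.0628 to 0.117).

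Among other lymphocyte genes, the GTPases Gimap4, Gimap3 and Gimap8, which support lymphocyte survival, rose as counted (1.83, 1.93 and 2.11, adjusted p = 0.0117, 0.0364 and 0.0373), and no GIMAP gene was called with the trend removed. B cell and plasma cell transcripts were carried by IL-27 replicate 2. Igkc had 3.56 and 125 CPM against 1.03 and 0.979, Jchain had 1.36 and 62 CPM against 0.138 and 0.272 and Ighm had 13.4 and 389 CPM against 6.45 and 9.78. Igkc, Jchain and the B cell gene Ms4a1 rose as counted (adjusted p = 0.0325, 0.0276 and 0.0137), and no gene of the list was called with the trend removed. Gimap4, Gimap3, Gimap8, Igkc, Jchain and Ms4a1 lost their calls without control replicate 1 (adjusted p 0.0515 to 0.216). Igkc, Jchain and Ms4a1 lost their calls without control replicate 2 (adjusted p 0.0652 to 0.157). Gimap4, Gimap3, Gimap8, Igkc, Jchain and Ms4a1 lost their calls without IL-27 replicate 2 (adjusted p 0.078 to 0.124).

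Of 15 tested genes of neutrophils and their granules, 7 rose and 1 fell as counted and 7 rose and none fell with the trend removed, with medians of 2.15 and 1.67. Ngp, neutrophilic granule protein, went from 0.151 and 0.109 CPM to 12.4 and 12.7, a log2 fold change of 6.57 ± 0.56 in one fit and 6.57 in the other (adjusted p = 0.00139 and 0.00664). Ltf, which encodes the iron-binding protein lactoferrin, had 683 and 692 counts against none in either control, at least 223-fold higher, and the peroxidase gene Mpo had 78 and 104 against none, at least 29.6-fold higher (adjusted p = 0.00146 and 0.00745). The 2 subunits of calprotectin, S100a8 and S100a9, had 4.42 and 4.17 CPM against 0.201 and 0.34 and 12.7 and 9.99 CPM against 0.364 and 1.14 (adjusted p = 0.00533 and 0.00795). The IL-27 replicates lay close together for these 5 genes, and all 5 calls held in all 6 fits. The chitinase-like gene Chil3 and the surface gene Cd177 rose in both fits as well (adjusted p with the trend removed = 0.0391 and 0.014), and Mmp9 fell as counted (-1.97, adjusted p = 0.0198, and 0.772 after removal). The summed CPM of the 4 neutrophil markers Ngp, Ltf, S100a8 and S100a9 was 38.1 and 35.7 against 0.715 and 1.59. Chil3, Cd177 and Mmp9 lost their calls without control replicate 1 (adjusted p 0.0646 to 0.111). Cd177 lost its call without control replicate 2 (adjusted p = 0.0566). Cd177 and Mmp9 lost their calls without IL-27 replicate 2 (adjusted p 0.0849 to 0.106).

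The IL-1 family drives early inflammation. Of 19 tested genes of the family and of the inflammasome 10 rose and 1 fell as counted and 2 rose with the trend removed, with medians of 1.58 and 0.94. The decoy receptor gene Il1r2 had 18 and 21.4 CPM against 2.21 and 1.78 (adjusted p = 0.00281 and 0.00899) and the cytokine gene Il1b had 33 and 22 CPM against 7.01 and 4.77 (adjusted p = 0.0121 and 0.0438), and both calls held in all 6 fits. The protease gene Casp1, which activates IL-1 beta, rose as counted (2.24, adjusted p = 0.015) with 1.19 after removal (adjusted p = 0.13). Il6 rose as counted too, with 6.89 and 5.35 CPM against 0.978 and 0.721 (adjusted p = 0.0105, and 0.128 after removal). Casp1 lost its call without control replicate 1 (adjusted p = 0.101). Casp1 lost its call without control replicate 2 (adjusted p = 0.0626). Casp1 lost its call without IL-27 replicate 2 (adjusted p = 0.0776).

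Of 18 tested genes of the TNF and NF-kB response, 1 rose as counted, which was Il6, and 7 fell (38.9%, against 16.5% of all tested genes), among them Nfkb2, which encodes a transcription factor subunit (11.2 and 10.7 CPM against 116 and 102, adjusted p = 0.00156), and Tnip1, an inhibitor of the pathway (3.31 and 3.18 CPM against 54.4 and 36.2, adjusted p = 0.00178). With the trend removed Nfkb2 was not called (adjusted p = 0.378), and the genes called lower were Tnip1 (-1.29, adjusted p = 0.0474) and Nfkb1 (-1.74, adjusted p = 0.0144). The Tnip1 call held in all 6 fits. Of the Toll-like receptors and their adaptors, Tlr11 and Tlr13 rose and Ticam1, Unc93b1 and Cd14 fell as counted (log2 fold changes 4.37, 1.28, -3.07, -2.38 and -2.24). Tlr11 and Cd14 were called again with the trend removed (adjusted p = 0.0495 and 0.032). Tlr11, Tlr13 and Cd14 lost their calls without control replicate 1 (adjusted p 0.0628 to 0.122). Tlr11 lost its call without control replicate 2 (adjusted p = 0.0598). Tlr13 and Cd14 lost their calls without IL-27 replicate 1 (adjusted p 0.052 to 0.137). Tlr11 and Tlr13 lost their calls without IL-27 replicate 2 (adjusted p 0.193 to 0.256).

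Macrophage genes changed in both directions. The C1q chains C1qc, C1qa and C1qb fell as counted (-4.23, -3.86 and -3.03, adjusted p = 0.00149, 0.00225 and 0.00786), and C1qc, with 4.61 and 6.64 CPM against 124 and 86.9, was lower in all 6 fits (-1.73 with the trend removed, adjusted p = 0.0151). Trem2, a lipid receptor, and Cd14 fell in both fits (with the trend removed -1.79 and -1.61, adjusted p = 0.0485 and 0.032), Cd68 fell and the scavenger receptor gene Msr1 rose as counted (adjusted p = 0.0284 and 0.0467). Adgre1, the F4/80 antigen, had 178 and 267 CPM against 109 and 123.3 (adjusted p = 0.104), and the colony-stimulating factor receptor Csf1r had 127 and 161 CPM against 266 and 249.7 (adjusted p = 0.111). The list had 1 gene higher and 6 lower of 20 as counted and 3 lower with the trend removed, and its median was 0.03 and 0.02. The shares that fell were 30% and 15%, against 16.5% and 5.46% of all tested genes. In the complement list of 16 genes 3 rose as counted (18.8%, against 3.52% of all tested genes), among them C1s1 and Cd55, and the C1q chains and properdin, Cfp, fell (25%, against 16.5%), and C1s1 and Cd55 rose and C1qc fell after removal (C1s1 2.73, adjusted p = 0.0412, and Cd55 2.08, adjusted p = 0.0467). Trem2, Cd14, Cd68, Msr1, C1s1 and Cd55 lost their calls without control replicate 1 (adjusted p 0.0628 to 0.163). C1s1 lost its call without control replicate 2 (adjusted p = 0.0575). Trem2, Cd14, Cd68 and Msr1 lost their calls without IL-27 replicate 1 (adjusted p 0.052 to 0.14). Msr1 lost its call without IL-27 replicate 2 (adjusted p = 0.344).

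Among dendritic cell genes the lectin receptor Cd209a rose and the actin-bundling gene Fscn1 fell in all 6 fits, with 15.7 and 20.6 CPM against 2.04 and 3.28 and 4.95 and 4.55 CPM against 232 and 177 (adjusted p with the trend removed = 0.0236 and 0.00895). Flt3, the growth factor receptor of dendritic cell precursors, fell in both fits, with 8.12 and 5.55 CPM against 22.5 and 29.5 (adjusted p = 0.0169 and 0.0339), and without IL-27 replicate 2 that call was lost (adjusted p = 0.109). The other 11 tested genes of the list were not called, and its medians were 0.98 and 0.89. The mast cell genes Gata2 and Tpsb2 fell as counted (-3.36 and -4.21, adjusted p = 0.00209 and 0.00467) and were not called after removal, while the list's median was 1.38 and 0.59.

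Skeletal muscle genes had the largest median change of the 48 lists. Of 28 genes of contraction and muscle metabolism, 23 rose and 1, Eno3, fell as counted (-1.67, adjusted p = 0.0275), 24 rose and none fell with the trend removed, and 14 were called higher in all 6 fits. The medians were 5.91 and 6.31. Acta1, skeletal muscle actin, went from 1.04 and 0.612 CPM to 55.4 and 51.5, a log2 fold change of 6.01 ± 0.47 (adjusted p = 0.00139) and of 8.35 with the trend removed (adjusted p = 0.00236). Acta1 lies on chromosome 8 at 123891769 to 123894751 and shares much of its coding sequence with Actc1. The fast myosin Myh4 had 361 and 108 CPM against 2.76 and 0.163 and the fast troponin Tnnt3 had 198 and 52.8 CPM against 1.43 and 0.313 (adjusted p = 0.0109 and 0.00398). Tnnc2, another troponin subunit that overlaps Ube2c on the other strand, had 32 and 13.7 CPM against 0.138 and 0.0408, the calcium buffer parvalbumin, Pvalb, had 49.8 and 20.7 CPM against 0.351 and 0.68, and the creatine kinase Ckm had 41.1 and 36.3 CPM against 0.64 and 0 (adjusted p = 0.00166, 0.00197 and 0.0139). In each of these genes the IL-27 tumors lay far above the controls, and IL-27 replicate 1 was the higher of the pair. Eno3 lost its call without control replicate 1 (adjusted p = 0.0912). Eno3 lost its call without IL-27 replicate 1 (adjusted p = 0.0645). Eno3 lost its call without IL-27 replicate 2 (adjusted p = 0.193).

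Several muscle genes had no counts in the controls. Myh2, a fast oxidative myosin, had 428 and 344 counts against none, at least 125-fold higher, and the titin cap gene Tcap had 316 and 333, at least 106-fold higher (adjusted p = 0.0018 and 0.00197). The slow isoforms Myh7 and Myl2 had 112 and 144 and 86 and 103 counts against none, at least 41.6-fold and 30.7-fold higher, also called in all 6 fits. Casq2 rose as counted (1.91, adjusted p = 0.0372), and of 10 slow and cardiac genes none fell in either fit. Of the myogenic regulators the growth inhibitor Mstn rose as counted, with 463 and 12 counts against none, so that 1 library carried it, and none of the 7 tested was called with the trend removed. The summed CPM of the muscle markers Acta1, Ckm, Myh4 and Tnnt3 was 655 and 248 in the IL-27 tumors and 5.87 and 1.09 in the controls. The part of muscle tissue in the other results of these libraries was not tested. Casq2 and Mstn lost their calls without control replicate 2 (adjusted p 0.0787 to 0.113). Mstn lost its call without control replicate 1 (adjusted p = 0.174). Casq2 lost its call without IL-27 replicate 2 (adjusted p = 0.0703).

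Of other tissues next to a subcutaneous tumor, the adipocyte, epidermal and nerve lists held no called gene with the trend removed. Outside these lists the keratin genes Krt13 and Krt80 and the gene Sfn were lower in all 6 fits (adjusted p with the trend removed = 0.0371, 0.0234 and 0.0318). These 3 genes were chosen after their values were seen. Adipocyte genes varied within the groups, with the summed CPM of Adipoq and Plin1 at 2.08 and 109 against 5.38 and 44.0, and none of 13 genes was called in either fit. The basal epidermal keratins Krt5 and Krt14 had no counts in 3 of the 4 libraries and 16 and 24 in control replicate 1. Other epidermal and hair follicle genes had counts in IL-27 replicate 1, with 114 for Krt25, 107 for Krt71, 70 for Dsg1a and 44 for Dsc3, and none in the controls. These genes were too low to be tested, and none of 6 tested epidermal genes was called in either fit. The nerve genes Tubb3 and Prx fell as counted (-3.40 and -2.74, adjusted p = 0.00218 and 0.00762) and not after removal.

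The markers of the tumor line were low or uneven. Epcam had between 7 and 19 counts in each library and Krt18 between 11 and 109, so that the epithelial origin of the line could not be read from them. Krt8, a keratin of simple epithelia, had 4.24 and 2.04 CPM against 67.3 and 20.8 and fell as counted (adjusted p = 0.00983, and 0.177 with the trend removed), and Krt19 fell as counted as well (adjusted p = 0.00986). Hras, the oncogene that the line carries in activated form, fell from 46.3 and 19.2 CPM to 2.07 and 2.33, a log2 fold change of -3.89 ± 0.54 (adjusted p = 0.00371) and of -2.18 with the trend removed (adjusted p = 0.0261), in all 6 fits. Counts cannot separate the added copy from the mouse gene. Krt19 lost its call without control replicate 1 (adjusted p = 0.0948).

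In the list of H-Ras and its downstream genes, which counts Hras itself, 5 of 21 fell and none rose as counted, and 3 fell and 3 rose with the trend removed. The shares that fell were 23.8% and 14.3%, against 16.5% and 5.46% of all tested genes, and the medians of the list were -0.52 and -0.10. The kinase gene Map2k2, which encodes MEK2, had 1.33 and 1.09 CPM against 94.5 and 74.9 (adjusted p = 0.00139 and 0.00664), and the AP-1 subunit Fosl1, which overlaps Ccdc85b, had 1.74 and 2.65 CPM against 136 and 98.7 (adjusted p = 0.00139 and 0.00664). Both groups of values were far apart, and both calls held in all 6 fits. Mapk3, or ERK1, and the ETS factor Etv4 fell as counted (-2.38 and -2.50, adjusted p = 0.00783 and 0.0108) and had 0.08 and 0.25 after removal. The 3 that rose with the trend removed were the pathway targets Phlda1, Spred3 and Dusp4 (2.22, 2.04 and 2.18, adjusted p = 0.0111, 0.0114 and 0.0226), whose values as counted were -0.52, 0.28 and 0.30, the last -0.26 without IL-27 replicate 2.

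Of 40 genes of the cell cycle and DNA replication 9 fell as counted and 4 with the trend removed (22.5% and 10%, against 16.5% and 5.46% of all tested genes), none rose in either fit, and the medians were -0.37 and -0.45. Gins2, a subunit of the replicative helicase, had 4.6 and 3.51 CPM against 101 and 71.1, the thymidine kinase gene Tk1 had 9.01 and 4.87 CPM against 162 and 88.2 and the helicase gene Mcm2 had 22.3 and 15.1 CPM against 107 and 97.2 (adjusted p with the trend removed = 0.00664, 0.00904 and 0.0129), and these 3 calls held in all 6 fits, although Mcm2 had 0.03 when GC content and length were taken as means over transcripts. Gins2 and Tk1 overlap other genes, Gse1 and Afmid. Mcm5 fell in both fits (-1.90 and -1.47, adjusted p = 0.0151 and 0.0494). The mitotic kinase gene Plk1 and the licensing factor Cdt1 fell as counted (-3.07 and -2.67) and were not called after removal (adjusted p = 0.0889 and 0.748). Of 19 histone genes Hist1h1c fell as counted (-1.70, adjusted p = 0.0182) and Hist3h2a with the trend removed (-2.19, adjusted p = 0.0317), in libraries selected for poly(A), which most histone transcripts lack. Mcm5 and Hist1h1c lost their calls without control replicate 1 (adjusted p 0.0511 to 0.0656). Hist1h1c lost its call without IL-27 replicate 1 (adjusted p = 0.115). Mcm5 and Hist1h1c lost their calls without IL-27 replicate 2 (adjusted p 0.0838 to 0.136).

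Of 38 collagen genes 11 fell as counted (28.9%, against 16.5% of all tested genes) and 1, Col14a1, rose (2.13, adjusted p = 0.0489), and with the trend removed 3 fell (7.89%, against 5.46%) and none rose while the median turned from -0.68 to 0.67. The 3 were Col16a1 with 1.91 and 1.27 CPM against 69.6 and 114, Col18a1, the source of endostatin, with 43.8 and 38.4 CPM against 1062 and 971, and Col6a2 with 52.6 and 69.1 CPM against 505 and 525 (adjusted p with the trend removed = 0.0106, 0.0263 and 0.0307), all 3 lower in all 6 fits. Col5a3 fell as counted (-2.55, adjusted p = 0.00323) and had 0.64 after removal. The matrix glycoproteins Fbln1 and Fbln2 fell in all 6 fits (-3.13 and -3.46, and -1.62 and -1.19 with the trend removed, adjusted p = 0.0214 and 0.0409). The fibroblast genes Fap, Postn and Lum rose and Pdgfrb and Pi16 fell as counted (adjusted p = 0.0336, 0.0383, 0.0436, 0.0158 and 0.0231), and none of these 5 was called after removal. Col14a1, Fap, Postn, Lum, Pdgfrb and Pi16 lost their calls without control replicate 1 (adjusted p 0.0748 to 0.23). Col14a1 and Fap lost their calls without control replicate 2 (adjusted p 0.0704 to 0.0713). Postn, Lum, Pdgfrb and Pi16 lost their calls without IL-27 replicate 1 (adjusted p 0.0776 to 0.155). Col14a1, Fap, Postn and Lum lost their calls without IL-27 replicate 2 (adjusted p 0.2 to 0.302).

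Among matrix proteases Mmp3, stromelysin 1, rose in all 6 fits, with 172 and 303 CPM against 5.29 and 30.2 (adjusted p = 0.0205 and 0.0397). The collagenase gene Mmp13 and Mmp27 rose as counted (1.71 and 3.99, adjusted p = 0.0231 and 0.0255), and Mmp2 and Mmp25 with the trend removed (1.88 and 2.49, adjusted p = 0.0118 and 0.0485). The membrane protease Mmp14, with 195 and 150.4 CPM against 564 and 450.4, was 1 of 6 that fell as counted (adjusted p = 0.0204), and none fell after removal. In the osteoclast and RANKL list the protease cathepsin K, Ctsk, rose in both fits, with 52.7 and 101 CPM against 23.8 and 25.6 (adjusted p = 0.0296 and 0.0495), the decoy receptor Tnfrsf11b rose as counted (adjusted p = 0.0212) and Fosl2 with the trend removed (adjusted p = 0.029). Of 20 endothelial genes Tie1, Eng, Cldn5 and Flt4 fell as counted, 20% against 16.5% of all tested genes (-3.16, -2.57, -2.84 and -1.84, adjusted p = 0.00475, 0.0209, 0.0343 and 0.0466), no endothelial gene was called with the trend removed, and the median turned from -0.67 to 0.36. The endothelial adhesion gene Pecam1 had 153 and 348 CPM against 96.2 and 114 (adjusted p = 0.0957), higher in both IL-27 tumors, and the summed CPM of the 2 endothelial markers was 215 and 468 against 183 and 234. Mmp13, Mmp27, Ctsk, Tnfrsf11b, Eng, Cldn5 and Flt4 lost their calls without control replicate 1 (adjusted p 0.0778 to 0.194). Mmp27, Ctsk, Eng and Flt4 lost their calls without control replicate 2 (adjusted p 0.057 to 0.136). Mmp14, Eng, Cldn5 and Flt4 lost their calls without IL-27 replicate 1 (adjusted p 0.0511 to 0.174). Mmp13, Mmp14 and Ctsk lost their calls without IL-27 replicate 2 (adjusted p 0.138 to 0.279).

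Erythroid genes differed among themselves. Alas2, the first enzyme of heme synthesis in red cells, had 7.5 and 32.2 CPM against 1.52 and 1.73 and rose in both fits (adjusted p = 0.0152 and 0.0144), and the alpha globin copies Hba-a1 and Hba-a2, which are near identical, were called higher with the trend removed (3.61 and 3.91, adjusted p = 0.0352 and 0.0271). As counted Hba-a1 had 9.55 and 58.7 CPM against 14.4 and 14.9 and Hba-a2 had 9.55 and 57.4 CPM against 12.9 and 9.49, so that IL-27 replicate 1 did not lie above both controls, and without IL-27 replicate 2 the log2 fold changes as counted turned to -0.63 and -0.24. The list's median of 8 genes was 1.40, and 3.76 with the trend removed or 2.25 there when genes without counts in the controls were set to their lower bounds. The beta globin gene Hbb-bs had 11.5 and 43.3 CPM against 49.6 and 17.9 (adjusted p = 0.797), highest in control replicate 1, and the anion exchanger gene Slc4a1 had 0.228 and 0.718 CPM against 3.35 and 2.04 (adjusted p = 0.0606), with both IL-27 tumors below both controls. Alas2 lost its call without control replicate 1 (adjusted p = 0.139). Alas2 lost its call without control replicate 2 (adjusted p = 0.079).

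Of 81 cytosolic ribosomal protein genes 48 fell and 1 rose as counted, and 42 fell and 5 rose with the trend removed, with medians of -2.10 and -1.74, and 33 were lower in all 6 fits. The shares that fell were 59.3% and 51.9%, against 16.5% and 5.46% of all tested genes. Rpl29 went from 512 and 280.4 CPM to 2.1 and 1.67, a log2 fold change of -7.71 ± 0.53 (adjusted p = 0.00139) and of -4.48 with the trend removed (adjusted p = 0.00664). Rplp1, a stalk protein of the large subunit, had 3.91 and 3.77 CPM against 243 and 259.6, Rpl8 had 20.4 and 15.5 CPM against 1332 and 669.9 and Rps26 had 13.4 and 14 CPM against 805 and 408, all lower in all 6 fits. The gene that rose as counted was Rpl3l, the muscle form of Rpl3, with 122 and 91 counts against none, at least 34.6-fold higher. With the trend removed it was joined by Rps27, Rps10, Rps6 and Rpl26 (2.29, 1.99, 2.01 and 2.05, adjusted p = 0.0168, 0.0177, 0.0186 and 0.023), of which Rps10, Rps6 and Rpl26 had -1.11, -0.88 and -0.26 as counted. Rps27 had 0.38 as counted, -0.11 without IL-27 replicate 2 and -0.10 without control replicate 2. Ribosomal protein genes have many processed copies in the genome, so that their counts are uncertain. Control replicate 1 held the highest share of these genes, 6.98% of its counts.

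Of 88 nuclear genes of the respiratory chain 32 fell as counted and 26 with the trend removed (36.4% and 29.5%, against 16.5% and 5.46% of all tested genes), with medians of -0.98 and -0.82, and 17 fell in all 6 fits, among them the complex I gene Ndufs7 (0.899 and 0.68 CPM against 22.9 and 17.5, adjusted p with the trend removed = 0.0445) and the complex III gene Uqcr11 (0.266 and 0.103 CPM against 27.1 and 15, adjusted p with the trend removed = 0.012). Cox8a was called higher with the trend removed (2.08, adjusted p = 0.0239) and had -0.79 as counted. Of 77 mitochondrial ribosomal protein genes 27 fell as counted and 12 with the trend removed (35.1% and 15.6%, against 16.5% and 5.46%), and 6 fell in all 6 fits, such as Mrpl12 (2.42 and 1.76 CPM against 93.7 and 42), while Mrps15 was called higher with the trend removed (1.62, adjusted p = 0.023) and had -0.38 as counted. The 13 protein-coding genes of the mitochondrial genome, whose transcripts are low in GC content, were all positive as counted and all negative with the trend removed, and none was called in either fit. mt-Co1, a subunit of cytochrome c oxidase, had 28900 and 27690 CPM against 15500 and 13060 (adjusted p = 0.0669), with 0.99 as counted and -0.17 after removal.

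The proteasome degrades tagged proteins. Of its 38 tested genes 10 fell as counted and 7 with the trend removed (26.3% and 18.4%, against 16.5% and 5.46% of all tested genes), all 7 in all 6 fits (18.4%, against 3.84%), with medians of -0.20 and -0.47. Psmd3, a lid subunit that overlaps another gene, had 13.5 and 10.3 CPM against 327 and 175, Psmd4, a ubiquitin receptor, had 28.4 and 24 CPM against 227 and 157, and the catalytic subunit Psmb5 had 4.35 and 2.37 CPM against 106 and 62.9 (adjusted p with the trend removed = 0.0104, 0.0109 and 0.0163). Of 21 genes of hypoxia and glycolysis 7 fell as counted (33.3%, against 16.5%), and phosphofructokinase, Pfkl, and enolase, Eno1, fell in all 6 fits, with 8.97 and 12.4 CPM against 331 and 151 and 118 and 113 CPM against 2447 and 1147 (adjusted p with the trend removed = 0.0198 and 0.049), while the list's median turned from -0.58 to 0.28.

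Stress genes changed in a way that depended on the removal. In the unfolded protein list of 15 genes the chaperones Hspa5 and Dnajb9 rose and Trib3 and Chac1 fell as counted (1.19, 1.33, -3.29 and -3.59), Ddit4 and Xbp1 rose with the trend removed (1.69 and 1.22, adjusted p = 0.023 and 0.0498), and no gene was called in both fits. In the heat shock list of 11 genes Hsp90aa1 and Hsph1 rose and Bag3 fell as counted (1.27, 1.46 and -1.38), and the Hsp70 copies Hspa1a and Hspa1b, which are near identical, were called higher with the trend removed (4.91 and 4.79, adjusted p = 0.0448 and 0.0299). Their values as counted, 0.925 and 10.9 CPM against 0.928 and 1.56 for Hspa1a and 6.4 and 65.1 CPM against 8.93 and 5.9 for Hspa1b, overlapped between the groups, and without IL-27 replicate 2 the log2 fold changes as counted turned to -0.44 and -0.22. Of 12 immediate early genes Ier2, Junb and Nr4a1 fell as counted, and Ier2, with 0.38 and 0.333 CPM against 12.8 and 11.3, was lower in all 6 fits (adjusted p with the trend removed = 0.0407). Egr1 and Zfp36 were called higher with the trend removed (2.71 and 1.64, adjusted p = 0.0109 and 0.0307), and Egr1 turned from 0.36 to -0.22 as counted without IL-27 replicate 2. None of 6 nuclear long noncoding RNAs was called in either fit, with medians of 0.51 and 0.00. Hspa5, Dnajb9, Trib3, Chac1, Hsp90aa1, Hsph1, Bag3 and Nr4a1 lost their calls without control replicate 1 (adjusted p 0.0668 to 0.177). Hsph1 lost its call without control replicate 2 (adjusted p = 0.0858). Hspa5, Dnajb9, Hsp90aa1, Bag3 and Nr4a1 lost their calls without IL-27 replicate 1 (adjusted p 0.0573 to 0.193). Hspa5, Dnajb9, Hsp90aa1, Hsph1, Bag3 and Nr4a1 lost their calls without IL-27 replicate 2 (adjusted p 0.065 to 0.372).

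Among the genes with the smallest p-values that rose, Acta1, Tnnc2, Myh2, Pvalb and Tcap are muscle genes and Ngp and Ltf neutrophil genes. The eighth was Prn, annotated across the prion gene Prnp and its neighbor Prnd on chromosome 2 at 131909957 to 131956130, with 891 and 1347 counts against none, at least 364-fold higher, and since these genes overlap on the same strand its reads may be theirs. Among those that fell, Rpl29 was followed by Mvp, the major vault protein, with 3.41 and 3.35 CPM against 159 and 106 (-5.29 and -5.51), the lipid-sensing receptor gene Ppard, with 2.86 and 2.68 CPM against 70.9 and 62 (-4.58 and -4.07), and the zinc finger gene Zfp523, with 0.709 and 0.667 CPM against 25.2 and 29.6 (-5.31 and -4.91). Mvp, Ppard and Zfp523 lie at a GC content of 49.7%, 52.2% and 52.0%, close to the median of the tested genes, 49.1%, and the removal changed their values little. Hspg2, which encodes the basement membrane proteoglycan perlecan, had 4.13 and 3.42 CPM against 263 and 384, with a GC content of 60.9% and a log2 fold change that went from -6.42 to -3.31. The RNA polymerase subunit Polr2e, the vesicle gene Scamp4 and Aamp had -3.73, -3.44 and -3.81 with the trend removed, and Arhgap45, Gcn1l1, Scrib, Sf3a2 and Prrc2a, which had the smallest p as counted, had between -3.33 and -2.49. All of these genes that fell were lower in all 6 fits.

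**Figure D4:**
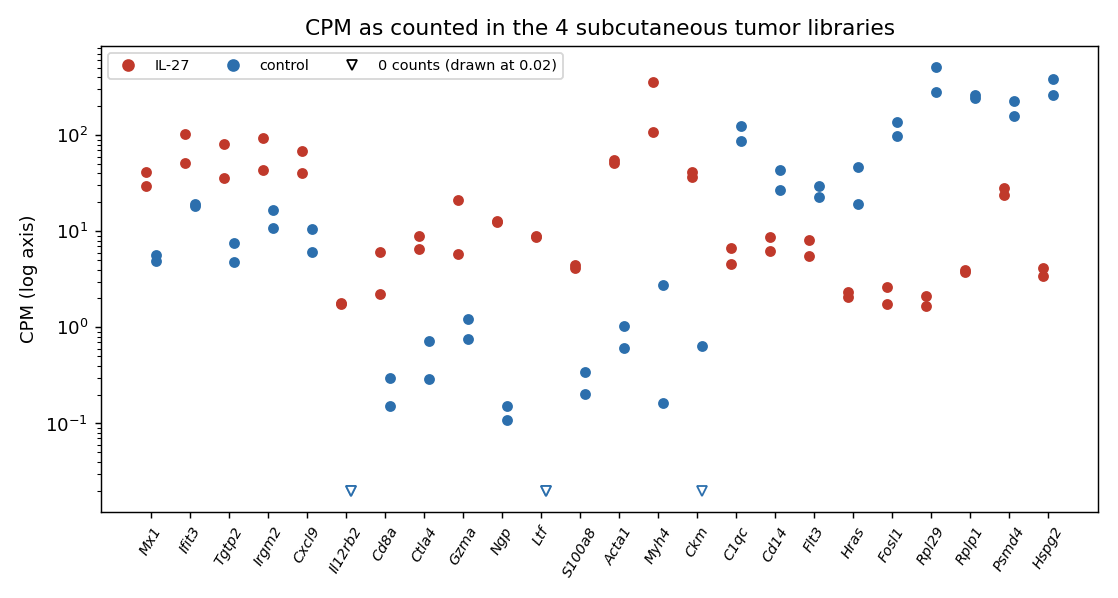
Each point is 1 library, with IL-27 tumors in red and control tumors in blue, and the vertical axis gives CPM as counted on a log scale, with open triangles for 0 counts. The 24 genes run from interferon, lymphocyte, neutrophil and muscle genes, higher in the IL-27 tumors, to macrophage, tumor line, ribosomal and matrix genes, lower in them. All were picked among genes called in both fits, and for each of them the groups do not overlap.

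Of the 68 genes called higher in all 6 fits 31 belonged to a list described above, and of the 744 called lower 81 did. The median GC content of the 68 was 48.2% and that of the 744 was 56.1%, against 49.1% over the tested genes. A gene had to be called in 5 fits as counted to be among them, and those calls follow GC content. In the class with the highest GC content 328 of the 534 genes called higher with the trend removed were found, and 521 of the 1058 called lower.

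IL-27 and control plasmids had also been compared in tumors of the tibia at day 14, with 3 tumors each, in mice that were implanted with 100000 TC2Ras-Luc cells in each tibia and also received the vehicle PvP. The labels of these libraries name the plasmids pIL27 and pORF0, and whether they are the ones used in the subcutaneous experiment was not settled here. There no gene passed the adjusted threshold among 18519 tested by edgeR, and 511 had an unadjusted p under 0.05. The difference between the 2 effects, subcutaneous minus tibial, was called for 4928 of 20977 genes (23.5%), 1156 higher and 3772 lower, and for 2120 with the trend removed. Site, library series, derivative of the line, number of cells implanted, vehicle and time of harvest all differ between the 2 experiments and cannot be told apart. Ngp had 0.450 to 2.01 CPM in the tibial IL-27 tumors and 1.58 to 1.86 in their controls, and its effect differed between the sites by 7.21 on the log2 scale (adjusted p = 0.000138). Rpl29 had 307 to 395 CPM in the tibial IL-27 tumors against 242 to 356, and the effects differed by -8.01 (adjusted p = 3.67e-06). Ltf, Mvp, Ppard, Zfp523 and Hspg2 differed as well, with adjusted p between 4.2e-06 and 0.000298. Prn had counts in 1 of the 6 tibial libraries and was too low to be tested at that site. For the muscle genes Acta1 and Tnnc2 the difference was not called, and their values spread widely within the tibial groups. Acta1 had 7.07, 18.1 and 454 CPM in the tibial IL-27 tumors and 0.833, 44.6 and 7.40 in their controls (difference 2.82, adjusted p = 0.426), and Tnnc2 had 0.208, 1.38 and 45.0 against 0.0546, 1.84 and 0.0688 (difference 3.38, adjusted p = 0.425).

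**Figure D5:**
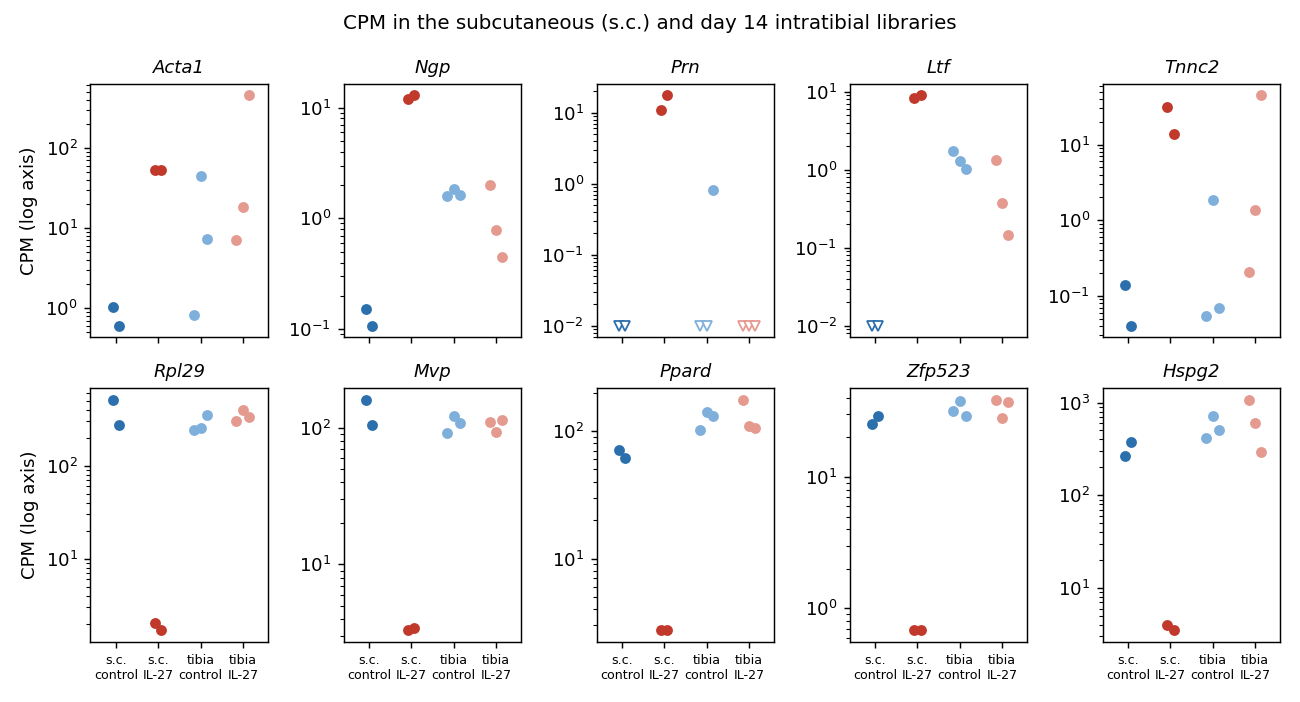
Each panel is 1 gene and each point 1 library, with CPM on a log axis, for subcutaneous (s.c.) controls, subcutaneous IL-27 tumors, tibial controls and tibial IL-27 tumors, with open triangles for 0 counts. Rpl29, Mvp, Ppard, Zfp523 and Hspg2 are low in the 2 subcutaneous IL-27 libraries alone, and all 6 tibial libraries of day 14 lie far above them.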

How the data were processed

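Total RNA of the tumors was sequenced as stranded poly(A) libraries. The authors trimmed reads with cutadapt and mapped them to the mouse genome with HISAT2, and the deposited values are raw counts, whole numbers for each Ensembl gene. The program that counted and the annotation are not given in the sources used here. The submitters' processing notes list FastQC, HISAT2, StringTie and DESeq2, and as build the human GRCh38, although the identifiers are those of mouse genes. GENCODE M21 (GRCm38) holds 55141 of the 55401 identifiers and gave coordinates, GC contents and lengths. Totals per library, 69240429 to 83782258 counts, are large, but 32.3% to 34.2% of the counts from 1 to 20 were multiples of 4, so that the counting error may exceed what the counts imply, and limits of detection cover counting error only.

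Groups came from the sample labels. The counts of the 4 libraries were filtered by edgeR (version 4.0.16, R 4.3.3), normalized by TMM and compared by its quasi-likelihood test with Benjamini-Hochberg adjustment at 0.05. The trend of each library with GC content and length was removed as offsets from natural splines with 5 degrees of freedom. Fits on simulated counts were used as a check. The interaction with site used 10 libraries. Alternatives were DESeq2 (version 1.42.0), RLE normalization, no filter, GC content alone, means over transcripts, a replicate block, counts divided by 4, pooled spread and leaving out each library.

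Genes named are the up to 4 of each of 48 lists with the smallest p as counted, all genes of the IL-27 and CXCR3 lists, and the 8 in each direction with the smallest p as counted and over both fits. Other genes, named where 5 or fewer of a list were called or as further examples, were chosen after their values were seen. The lists and all members were chosen with earlier results of these data known. Some genes of the lists are not reported here by name.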

Additional observations from a re-analysis of the deposited data

Results flagged for a closer look

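The IL-27 effect differed between the subcutaneous and the day 14 tibial tumors for 4928 genes, by the interaction of site and plasmid in edgeR. Among the genes named for this comparison the largest positive difference of a log2 effect with counts in every group was that of Ngp, 7.21. For Ltf, which had no counts in the subcutaneous controls, the difference was called with an adjusted p of 0.000298, and no fold is given. Prn had an adjusted p of 0.011, but it had counts in 1 of 6 tibial libraries and was too low to be tested there, so that this value compares the subcutaneous effect with no measured tibial one. The difference was -8.01 for Rpl29, -5.29 for Mvp, -4.65 for Ppard, -5.40 for Zfp523 and -6.68 for Hspg2. With the GC and length trend removed these 5 differences were -5.05, -5.64, -4.25, -5.14 and -3.93. What set the 2 experiments apart, from site to library series, cannot be told apart. No group held 4 or more libraries, so that single libraries were not tested as outliers.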

How the results depend on the processing

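As counted, 682 genes were called higher and 3198 lower, so that 17.6% of the calls were higher. That share was 34.7% with DESeq2 (2054 and 3866) and 33.5% with the trend removed (534 and 1058), but 9.92% without a filter on low counts (295 and 2680). The trend in GC content alone gave 422 and 860, GC content and length as means over transcripts 753 and 1148, and the spread pooled with the day 14 tumors 2203 and 4563. Leaving out 1 library each gave 104 to 1807 higher and 1989 to 3393 lower, the fewest higher without control replicate 1 and the most without control replicate 2. The number of genes whose effect differed from the day 14 tumors was 2120 with the trend removed and 3503 to 6733 with 1 library left out. The correlation of same-numbered deviations over the genes was 0.028. It cannot decide whether the replicate numbers pair the libraries, and the labels do not say. A replicate block gave 969 higher and 3279 lower, or 976 and 1558 with the trend removed. The fits with RLE normalization and with counts divided by 4 gave numbers within 1.5 times those as counted. With 2 libraries against 2 an exact permutation test of 1 gene cannot give a p below 0.333, so every call rests on the spread shared between genes. The cause of each change with the processing was not tested.

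With the GC and length trend removed, the log2 fold change had the other sign for Bag3 (0.60), Cd74 (1.28), Cldn5 (0.33), Col5a3 (0.64), Cox8a (2.08), Csf1r (0.53), Ddit4 (1.69), Ebi3 (0.03), Etv4 (0.25), Flt4 (0.28), H2-Ab1 (1.77), Hbb-bs (0.03), Il12rb1 (1.88), Il27ra (0.78), Lrrc32 (0.50), Mapk3 (0.08), Mrps15 (1.62), mt-Co1 (-0.17), Nr4a1 (0.39), Phlda1 (2.22), Pias1 (-0.35), Postn (-0.11), Ptpn6 (0.74), Rpl26 (2.05), Rps10 (1.99), Rps6 (2.01), Socs3 (0.79), Stat5a (1.08), Stat6 (0.23) and Tapbp (0.84), and the median for the lists collagens (0.67), endothelium (0.36), hypoxia and glycolysis (0.28), IL-27 subunits, receptor and JAK-STAT pathway (0.57), immediate early genes (1.28), MHC class II (0.49) and unfolded protein and amino acid response (0.21). With the trend in GC content alone removed, the log2 fold change had the other sign for Bag3 (0.64), Cd74 (1.25), Cldn5 (0.27), Col5a3 (0.67), Cox8a (1.95), Csf1r (0.55), Ddit4 (1.71), Etv4 (0.28), Flt4 (0.25), H2-Ab1 (1.72), Il12rb1 (1.90), Il27ra (0.80), Lrrc32 (0.50), Mapk3 (0.09), Mrps15 (1.52), Msr1 (-0.02), mt-Co1 (-0.23), Nr4a1 (0.43), Phlda1 (2.26), Pias1 (-0.32), Postn (-0.08), Ptpn6 (0.80), Rpl26 (1.90), Rps10 (1.92), Rps6 (1.92), Socs3 (0.82), Stat5a (1.08), Stat6 (0.23) and Tapbp (0.86), and the median for the lists collagens (0.67), endothelium (0.32), hypoxia and glycolysis (0.32), IL-27 subunits, receptor and JAK-STAT pathway (0.58), immediate early genes (1.32), MHC class II (0.48) and unfolded protein and amino acid response (0.25). With GC content and length taken as means over transcripts, the log2 fold change had the other sign for Bag3 (0.31), Cd74 (1.10), Cdt1 (0.01), Cish (0.78), Cldn5 (0.13), Col5a3 (0.14), Cox8a (2.15), Csf1r (0.11), Ddit4 (1.50), Etv4 (0.72), H2-Ab1 (1.82), Hbb-bs (0.39), Il12rb1 (1.33), Il27ra (0.53), Lrrc32 (0.16), Mcm2 (0.03), Mmp14 (0.98), Mrps15 (1.44), mt-Co1 (-0.30), Phlda1 (1.26), Pias1 (-0.35), Postn (-0.03), Ptpn6 (0.93), Rpl26 (0.51), Rps10 (1.27), Socs3 (1.33), Stat5a (0.54), Stat6 (0.98) and Tapbp (1.58), and the median for the lists endothelium (0.51), hypoxia and glycolysis (0.31), IL-27 subunits, receptor and JAK-STAT pathway (0.78), immediate early genes (0.95), MHC class II (1.03) and unfolded protein and amino acid response (0.62). With the replicate block and the trend removed, the log2 fold change had the other sign for Bag3 (0.60), Cd74 (1.27), Cldn5 (0.37), Col5a3 (0.64), Cox8a (2.12), Csf1r (0.53), Ddit4 (1.69), Etv4 (0.24), Flt4 (0.26), H2-Ab1 (1.78), Il12rb1 (2.59), Il27ra (0.78), Lrrc32 (0.46), Mapk3 (0.09), Mrps15 (1.62), mt-Co1 (-0.13), Nr4a1 (0.39), Phlda1 (2.22), Pias1 (-0.35), Postn (-0.06), Ptpn6 (0.71), Rpl26 (2.10), Rps10 (2.03), Rps6 (2.04), Socs3 (0.81), Stat5a (1.07), Stat6 (0.24) and Tapbp (0.84), and the median for the lists collagens (0.68), endothelium (0.34), hypoxia and glycolysis (0.08), IL-27 subunits, receptor and JAK-STAT pathway (0.57), immediate early genes (1.32), macrophages (-0.06), MHC class II (0.49) and unfolded protein and amino acid response (0.20). With the counts divided by 4, where fewer genes were tested, the sign turned for CXCR3 and its ligands (-0.84). With the replicate block alone the sign turned for macrophages (-0.11). Over the fits that left out 1 library each, a sign turned at least once for Dusp4 (-0.26 to 0.69), Egr1 (-0.22 to 0.76), H2-K1 (-0.02 to 1.47), Hba-a1 (-0.63 to 2.00), Hba-a2 (-0.24 to 2.35), Hbb-bs (-1.56 to 0.64), Hspa1a (-0.44 to 3.12), Hspa1b (-0.22 to 3.12), Il12rb1 (-1.45 to 1.43), Mrps15 (-0.73 to 0.04), Rpl26 (-0.81 to 0.55), Rps27 (-0.11 to 1.05), Stat2 (-0.07 to 0.89), erythroid (-0.40 to 2.17), heat shock (-0.44 to 0.69), immediate early genes (-0.67 to 0.22), macrophages (-0.72 to 0.46) and MHC class I and antigen processing (-0.15 to 0.41).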

Other observations

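Several granzyme genes of a cluster on chromosome 14 fell, and they were chosen after their values were seen. Gzmd had 1.25 and 1.85 CPM against 26.6 and 21.7 (log2 fold change -3.96 ± 0.45, adjusted p = 0.00207, and -3.75 with the trend removed), Gzme had 0.76 and 0.398 CPM against 16.5 and 9.36 (-4.48 and -4.16), Gzmf had 0.874 and 1.05 CPM against 20.5 and 15.4 (-4.22 and -4.14) and Gzmg had 0.583 and 0.808 CPM against 23.6 and 12.1 (-4.68 and -4.33). All 4 were lower in all 6 fits, and as near-identical copies they may share reads. Gzmb and Gzmc lie in the same cluster and were not called. Gzmb, the main granzyme of cytotoxic T cells, had 14.9 and 30.5 CPM against 11.1 and 6.88 (adjusted p = 0.0996) and Gzmc had 12.4 and 20.5 CPM against 51.4 and 28.8 (adjusted p = 0.0843). Gzma, higher in both fits, is given above.

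Other genes outside the lists, also chosen after their values were seen, were called in all 6 fits. Of lymphoid and myeloid surface genes the chemokine receptor Cxcr6 had 5.59 and 4.9 CPM against 0.301 and 0.34, the lectin receptor Klrb1b had 13.1 and 12.3 CPM against 2.07 and 1.5, Ms4a4b had 19.95 and 25.8 CPM against 2.08 and 4.94 and Lilr4b had 151 and 235 CPM against 33.8 and 41.4, all higher in the IL-27 tumors (3.12, 1.89, 1.57 and 1.42 with the trend removed). The secreted mediators Fgl2 and Saa3, an acute phase protein, and the interferon-induced Slfn4 were higher as well (3.16, 2.84 and 3.05, and 2.21, 2.50 and 2.35 with the trend removed). The interferon-induced Ifitm1 and Ifitm2 were lower in all 6 fits (-2.39 and -3.81, and -2.20 and -2.28 with the trend removed). Higher too were the stromal genes Igfbp5, Apod, Tnfaip6, Fgf7 and Abi3bp, with log2 fold changes of 2.44, 2.46, 2.97, 3.12 and 3.36 as counted and 2.38, 2.04, 1.91, 1.97 and 3.10 with the trend removed. Fgf7, a growth factor of epithelia, had 14.9 and 16.2 CPM against 0.978 and 2.6.

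Genes lower in all 6 fits included the cytokines Mif and Tgfb1, with 0.507 and 0.782 CPM against 56.1 and 89.1 and 10.7 and 12.7 CPM against 98.2 and 50.8 (-3.35 and -2.08 with the trend removed, adjusted p = 0.0109 and 0.0164). The lipid carrier Apoe and its receptor Lrp1 had 18 and 26.6 CPM against 632 and 555 and 8.44 and 8.3 CPM against 236 and 322, the iron store Ftl1 had 17.8 and 21.8 CPM against 1335 and 654, the urokinase receptor Plaur had 8.5 and 6.03 CPM against 66.7 and 64.9 and the protease Furin had 4.69 and 3.06 CPM against 103 and 109. Their log2 fold changes with the trend removed lay between -2.93 and -1.82. Among the tested genes, 150 had no count in either IL-27 tumor and 164 none in either control, and of these 8 and 11 had at least 100 counts in each library of the other group.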
